A study of Mus musculus with 12 samples.

Results

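Rapamycin was compared with its solvent, ethanol, in C2C12 myoblasts that carried a control siRNA against Renilla luciferase (Luc), a gene mouse cells do not have. C2C12 is 1 established line of mouse muscle precursor cells, and the 6 libraries used here are 6 of the 12 in the study. After 3 days with the siRNA, 3 samples received 20 nM rapamycin and 3 received ethanol, each for 12 hours, in growth medium with serum. The other 6 libraries carried an siRNA against Crebl2, a bZIP protein related to CREB, and received the same agents. They are used below to ask whether the rapamycin changes differ when Crebl2 is low, and to check the siRNA labels. They also enter the shared estimate of spread behind the edgeR p-values of the Luc comparison. All 6 Luc samples had therefore been transfected, and untransfected cells were not analysed here. No source used here says whether replicates were separate cultures. The p-values therefore reflect variation among the 12 libraries alone, possibly only technical.

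Rapamycin binds the immunophilin FKBP12, and that complex inhibits mTORC1, the mTOR-containing kinase complex that senses amino acids, growth factors and energy. Active mTORC1 promotes translation, ribosome production, lipid and nucleotide synthesis and cell growth, and restrains autophagy and lysosome formation. In myoblasts mTOR signalling also takes part in differentiation into muscle fibres, and sustained rapamycin is known to impair assembly of the second complex, mTORC2, as well.

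Stranded libraries of total RNA held 35115590 to 40016235 counts each with the Luc siRNA. Levels are given in CPM, the usual unit of counts scaled by library depth, after TMM scaling, and fold changes are on the log2 scale unless stated otherwise. CPM is a share of each library, and the amount of RNA per cell was not measured. A gene passed, or was called, if its p in edgeR's quasi-likelihood test, adjusted by Benjamini and Hochberg's method over 13247 tested genes, was under 0.05. The 3 ethanol and 3 rapamycin values of a gene are listed in replicate order. Counts were deposited per transcript and summed here per gene. A gene's countable share is the percentage of its exonic bases that belong to exactly 1 listed transcript. Protein-coding genes with a countable share under 10% had a median of 1 count over the 6 libraries, against 106 for those over 90%, so reads shared by several transcripts appear to be missing. Crebl2 served to check the siRNA labels. Its level was 23.8 to 39.96 CPM in the 6 Luc libraries and 4.87 to 10.7 CPM in the 6 Crebl2 siRNA libraries, without overlap (2-sided exact permutation p = 0.0022). With the Luc siRNA, Crebl2 itself stood at 23.8, 25.3 and 26.2 CPM in ethanol and 39.96, 36.4 and 36.3 CPM in rapamycin (log2 fold change 0.58, SE 0.10, edgeR adjusted p = 0.00019). The exact permutation p for that difference was 0.1, the smallest that 3 libraries against 3 allow. All 8 myoblast markers were detected, led in level by desmin (Des), a muscle intermediate filament protein, at 1549.9 ± 113 CPM in ethanol (SD, n = 3). Of the 8, Itga7 (−0.81), Cdh15 (−0.80) and Chrna1 (−0.59) fell, the filament protein Vim rose (0.83), and 4 did not pass, the determination factors Myod1 (0.15) and Myf5 (0.00) among them. Their summed level fell by 19.3%.

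Rapamycin shifted a large part of the measured transcriptome by small amounts. Of the 13247 genes tested, 2581 were called higher (19.5%) and 2860 lower (21.6%). Calls in either direction made up 41.1% of the tested genes, and calls with no overlap between the 6 libraries 39.8%. Called or not, the 3 rapamycin values lay above all ethanol values for 24.8% of tested genes and below them for 25.5%. The median log2 fold change was 0.429 among genes called higher, −0.44 among genes called lower and 0.017 over all tested genes. Log2 fold changes under 0.5 in size made up 57.9% of the calls. Falls outnumbered rises as the size grew: 530 genes fell at least 2-fold (4.0% of those tested) and 233 rose at least 2-fold (1.76%). At 4-fold or more the counts were 39 and 12.

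The called genes carried much of the RNA. Genes called higher held 32.62% to 32.71% of all CPM in the ethanol libraries and 41.79% to 42.18% in the rapamycin libraries. Genes called lower went from between 32.08% and 32.19% to between 23.29% and 23.77%. These shares describe genes chosen by the same contrast and are no test of it. The gain was concentrated in fewer genes than the loss, since the 10 genes of largest absolute rise supplied 26.7% of the summed gain, against 14.7% for the 10 of largest fall. Calls were also commoner where counts were high. With the tested genes divided by mean level into 4 groups of equal size, the lowest group (0.0133 to 0.939 CPM) had 8.15% called higher and 7.22% lower, against 28.2% and 32.0% in the highest group (63.0 CPM and above).

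**Figure D1:**
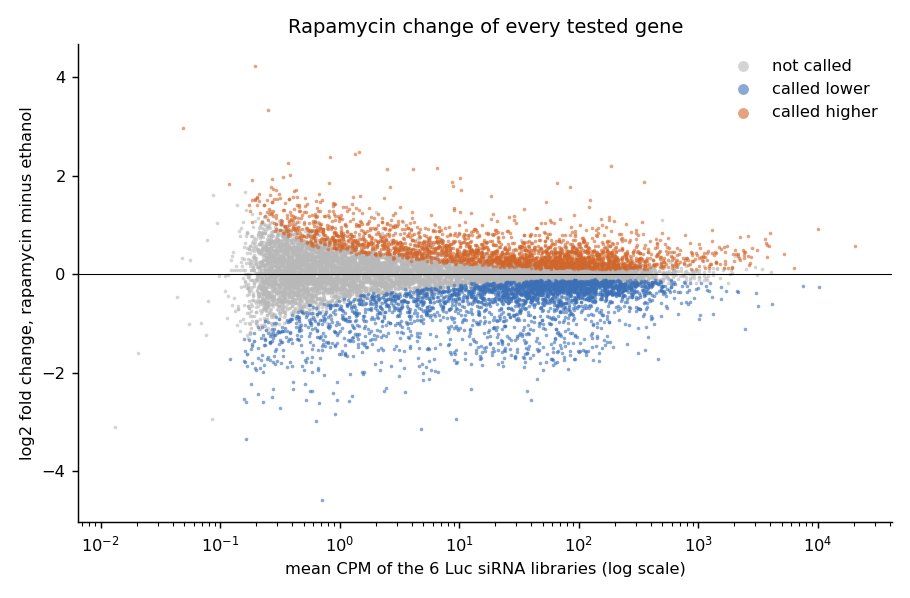
Log2 fold change of rapamycin over ethanol for each of the 13247 tested genes with the Luc siRNA (vertical axis), against the mean CPM of the 6 libraries (horizontal axis, log scale). Orange points are the 2581 genes called higher, blue points the 2860 called lower, and grey points were not called. Most called genes lie close to 0, and the falls reach further from 0 than the rises at middle levels.

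Among protein-coding genes averaging at least 5 CPM, with no overlap between groups, the largest rises were led by secreted and surface proteins. Fmod, fibromodulin, is a small leucine-rich proteoglycan that binds collagen fibrils. Its level was 65.3, 62.4 and 72.4 CPM in ethanol and 279, 322 and 324 CPM in rapamycin (log2 fold change 2.21, SE 0.10, edgeR adjusted p = 1.5e-10). Prelp, a related matrix proteoglycan, stood at 153, 141 and 154 CPM in ethanol and 529.8, 554 and 569.8 CPM in rapamycin (log2 fold change 1.88, SE 0.10, edgeR adjusted p = 7.5e-10). In both genes every rapamycin library lay above every ethanol library. Edn1 encodes the vasoactive peptide endothelin 1 and lies at chr13:42301476-42307990 on the plus strand (GRCm38). Its values were low but did not overlap, at 4.35, 3.8 and 4.29 CPM in ethanol and 15.4, 17.4 and 15.2 CPM in rapamycin (log2 fold change 1.95, SE 0.09, edgeR adjusted p = 3e-10). Plxna4, a semaphorin co-receptor, rose 4.47-fold from 2.37 ± 0.544 CPM. The kinase Pim1, which promotes survival downstream of cytokines, rose 3.62-fold and stood at 29.1, 28.7 and 27.6 CPM in ethanol and 92.5, 116 and 101 CPM in rapamycin.

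The other rises among the 14 largest covered several functions. Frat2 (1.87) binds and inhibits GSK3 in Wnt signalling. Smoc2 (1.80) is a calcium-binding matricellular protein, and Ltbp2 (1.36) is a microfibril protein. Krt14 (1.77) is a basal epithelial keratin, Foxq1 (1.72) a forkhead factor and Ncf4 (1.6) a subunit of the phagocyte oxidase. Nrbp2 (1.51), a pseudokinase, Anxa8 (1.48), a calcium-dependent phospholipid-binding protein, and Mettl7a1 (1.38), a methyltransferase-like protein, completed the set. Nrbp2 showed little spread, with 63.1, 67.3 and 61.1 CPM in ethanol and 181, 183 and 183 CPM in rapamycin.

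By the same criteria the largest fall was in Mfsd2a, which imports lysophosphatidylcholine and lies at chr4:122946850-122961188 on the minus strand (GRCm38). It stood at 16.7, 17.5 and 16.03 CPM in ethanol and 2.16, 1.76 and 2.63 CPM in rapamycin, a 7.66-fold fall (log2 fold change −2.94, SE 0.12, edgeR adjusted p = 1.2e-10). E2f2, an activating E2F factor of S-phase entry, stood at 73.7, 65.6 and 64.3 CPM in ethanol and 12.2, 11.5 and 11.1 CPM in rapamycin (log2 fold change −2.55, SE 0.10, edgeR adjusted p = 9.1e-11). Tfrc, the transferrin receptor that brings iron into the cell, stood at 53.9, 66.0 and 64.2 CPM in ethanol and 12.2, 11.4 and 12.1 CPM in rapamycin (log2 fold change −2.37, SE 0.12, edgeR adjusted p = 6.6e-10). None of these groups of 3 overlapped. Itga4, the integrin alpha 4 chain, fell 4.98-fold to 4.21 ± 0.723 CPM. Apobec2 (−2.15), a muscle member of the deaminase family, Actc1 (−2.13), the cardiac actin, and Ttn (−1.96), titin, are genes of muscle. Lrr1 (−1.99), Shcbp1 (−1.94) and Bub1 (−1.92) belong to dividing cells. Mxd3 (−1.88), a Max partner, Ly6c2 (−1.88), a surface antigen, and the glutathione transferases Gsta1 (−2.12) and Gsta2 (−1.94) also fell. The Gsta genes and the Ly6c genes have close relatives, so reads may be divided uncertainly among them.

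**Figure D2:**
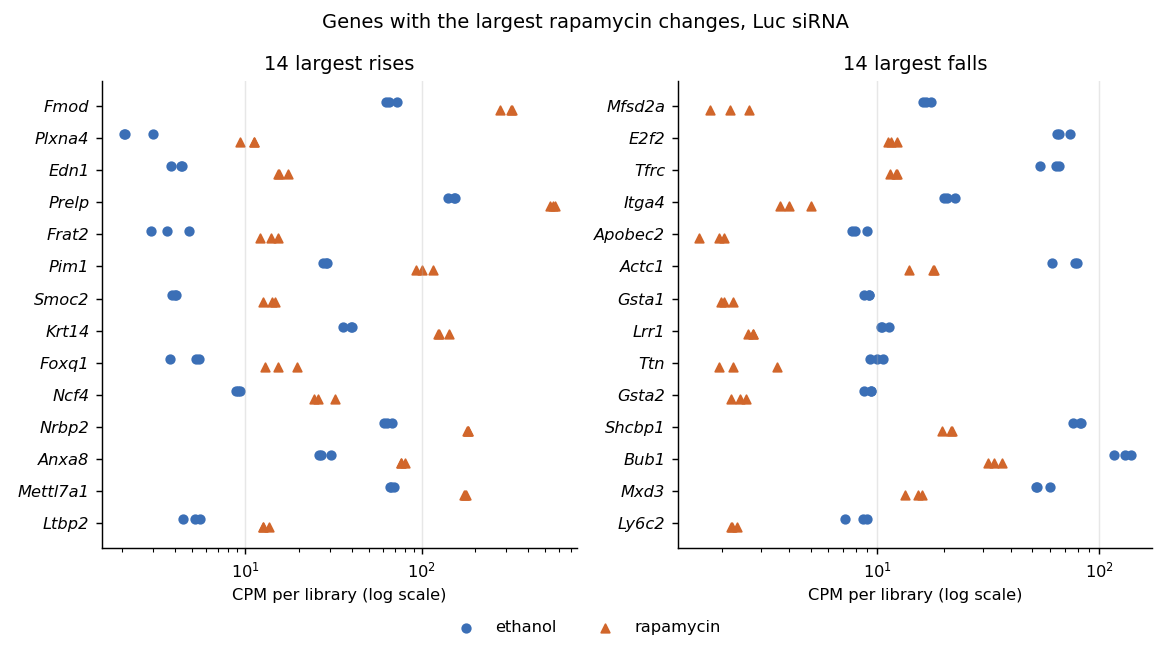
CPM in each of the 6 Luc siRNA libraries (log scale) for the 14 largest rises and 14 largest falls, chosen from protein-coding genes that were called, averaged 5 CPM or more and did not overlap. Blue circles are ethanol libraries and orange triangles rapamycin libraries. Fmod goes from 66.7 to 308 CPM on average at the top left, and Mfsd2a from 16.7 to 2.18 CPM at the top right.

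In absolute CPM the largest gains were in elongation factors, ribosomal proteins and cytoskeletal or matrix proteins. Eef1a1, the elongation factor that delivers aminoacyl-tRNA to the ribosome, stood at 16803, 16730.2 and 16380.0 CPM in ethanol and 24785, 25054 and 24219.7 CPM in rapamycin (log2 fold change 0.57, SE 0.04, edgeR adjusted p = 7.1e-09). Eef2, which moves the ribosome along the mRNA, stood at 7275, 6679.6 and 7082 CPM in ethanol and 12859, 13919 and 12837 CPM in rapamycin (log2 fold change 0.91, SE 0.05, edgeR adjusted p = 1.8e-09). The other large gains were in Lars2, the secreted glycoprotein Fstl1 (0.72), nonmuscle myosin Myh9 (0.63), Rpl3 (0.61), Acta2 (0.57) and Rplp0 (0.41). Lars2, the mitochondrial leucyl-tRNA synthetase, stood at 2254, 3803 and 2525 CPM in ethanol and 3854, 5594 and 5966 CPM in rapamycin (log2 fold change 0.84, SE 0.20, edgeR adjusted p = 0.0034). Its libraries differed within each group, and the highest ethanol value lay just under the lowest rapamycin value. With the Crebl2 siRNA no mitochondrial synthetase, Lars2 included, was called higher. The Lars2 change there less that with the Luc siRNA was −0.79, which was not called (edgeR adjusted p = 0.21). The largest losses in CPM were in the fibrillar collagen Col3a1 (−0.26), the desaturase Scd2 (−0.61), the IGF carrier Igfbp5 (−0.65) and galectin 1, Lgals1 (−0.23). They also included Atp5b (−0.37) of the ATP synthase, the chaperone Hsp90b1 (−0.80), glycolytic Pgam1 (−0.91) and the laminin receptor chain Itga7 (−0.81). Among noncoding genes, H19, an imprinted noncoding RNA of embryonic muscle, stood at 3426, 3351 and 3207 CPM in ethanol and 1621, 1454 and 1579.9 CPM in rapamycin (log2 fold change −1.10, SE 0.07, edgeR adjusted p = 4.6e-09).

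Called changes in the transcripts of the mTOR kinase complexes were small, while most sensors and stress inhibitors upstream of them fell. Of 7 tested kinase components, Mtor (0.25), the mTORC2 subunit Rictor (0.26) and the inhibitor Deptor (0.38) rose and 4 did not pass. The calls of Mtor and Rictor were each lost on leaving out 3 of the 6 Luc libraries in turn (edgeR adjusted p up to 0.078 and 0.082). Of 6 tested FKBP immunophilins, Fkbp1b (0.33) and Fkbp10 (0.15) rose and Fkbp4 (−0.58) and Fkbp3 (−0.31) fell. Both rises lost their calls on leaving out some single libraries, 3 for Fkbp1b and 5 for Fkbp10 (edgeR adjusted p up to 0.16 and 0.17). Fkbp1a, which encodes FKBP12 (−0.07), and Fkbp5 (−0.90) did not pass. Of 7 amino acid sensors and stress inhibitors of mTORC1, 6 fell. Ddit4, which activates the TSC complex under stress, stood at 91.2, 86.4 and 88.7 CPM in ethanol and 38.05, 45.0 and 39.8 CPM in rapamycin (log2 fold change −1.11, SE 0.06, edgeR adjusted p = 1.3e-09). Its relative Ddit4l (−1.0) and the sestrins Sesn1 (−0.36), Sesn2 (−0.35) and Sesn3 (−0.26) also fell, and the arginine sensor Castor1 rose (0.72). Among 21 tested genes of the Rag, Ragulator, folliculin, GATOR and KICSTOR complexes, 1 rose and 3 fell. Of 10 direct effectors, the cap-binding protein Eif4e fell (−0.52) and the autophagy kinase Ulk1 rose (0.27). The S6 kinases and 4E-BPs did not pass.

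Several upstream receptors, adaptors and FoxO genes rose. Irs2, an adaptor of the insulin and IGF receptors, stood at 61.7, 62.7 and 61.9 CPM in ethanol and 108, 116 and 114 CPM in rapamycin (log2 fold change 0.86, SE 0.06, edgeR adjusted p = 1.2e-08). Irs1 (0.55) and Igf1r (0.49) were among 4 of 8 that rose, and the other 4 tested receptors, ligands and adaptors did not pass. Pik3ip1 (0.71), an inhibitor of PI3 kinase, rose and Akt2 fell (−0.69). Foxo1 (0.66) and Foxo3 (0.31) rose, whereas Foxo6 fell (−1.25). Of 12 FoxO targets, 4 rose, among them the muscle atrophy ligase Fbxo32 (0.87) and the pyruvate dehydrogenase kinase Pdk4 (0.68). Another 4 fell, among them the receptor Erbb3 (−0.81). The list therefore held as many falls as rises.

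Transcripts of cholesterol synthesis fell along almost the whole pathway. Of 20 enzymes, 17 fell (median −0.78, against 0.017 over all tested genes) and the other 3 did not pass. Their summed level was 2247, 2210.0 and 2317 CPM in ethanol and 1349, 1298 and 1367 CPM in rapamycin, and it fell by 40.7%. Acat2 (−1.33), which joins acetyl groups at the start, Idi1 (−1.31), the isomerase of the isoprenoid units, and Fdps (−1.42), which makes farnesyl diphosphate, fell most. The Fdps call was lost on leaving out any of 5 libraries (edgeR adjusted p up to 0.086). Squalene epoxidase, Sqle (−1.20), fell by less. The regulator Srebf2 (−0.30), its relative Srebf1 (−0.37) and the retention factor Insig1 (−0.66) fell, and the escort protein Scap rose (0.25). Of 7 uptake genes, 4 fell and 2 rose, and their summed level rose by 19.1%, from 1942 CPM in ethanol to 2314 CPM in rapamycin. For uptake and transport, the lipoprotein receptor Lrp8 (−1.99) and the sterol carrier Stard4 (−1.11) fell. The ubiquitin ligase Mylip (0.47) and Abca1 (0.94), the cholesterol exporter, rose. Abca1 stood at 27.2, 30.8 and 32.0 CPM in ethanol and 59.8, 50.3 and 61.9 CPM in rapamycin.

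Nearly all promoters of these enzymes held a CCAAT box, the sequence that NF-Y binds. RefSeq promoters (GRCm38.p6, 250 bases before to 50 after the start) matched 9200 of the 13247 tested genes by symbol, and motifs were searched on both strands. The letters CCAAT occurred in 14 of 15 matched cholesterol enzymes, against 42.2% of the tested genes and 41.1% of all genes with a promoter. The sterol element TCACNCCAC was found in 1 of the 15, Hmgcs1 (−0.81), against 1.33% of tested genes. These shares are descriptions, and a match is not shown to be a bound site. From the larger falls, 2 called enzymes with a CCAAT box before the start are shown for the box itself, 5′ to 3′ along the gene, with CCAAT or its complement ATTGG in capitals. They lie at chr13:8885506-8885605 on the plus strand (Idi1) and chr10:76531488-76531587 on the plus strand (Lss, −0.88).
Idi1: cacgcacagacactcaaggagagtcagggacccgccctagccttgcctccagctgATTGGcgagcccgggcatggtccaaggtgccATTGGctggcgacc
Lss: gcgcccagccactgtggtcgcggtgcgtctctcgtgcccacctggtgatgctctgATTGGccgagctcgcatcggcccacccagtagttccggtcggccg

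Transcripts of fatty acid synthesis fell in part. Of 16 enzymes, 10 fell and 6 did not pass (median −0.23). The elongase Elovl6 (−1.22), the desaturases Fads2 (−0.92), Scd1 (−0.49) and Scd2 (−0.61) fell. Acly, which makes cytosolic acetyl-CoA, and Acaca, acetyl-CoA carboxylase, did not pass (0.28 and 0.03). Of 16 genes of phospholipid and triglyceride assembly, 5 fell, led by Mfsd2a and Dgat2 (−0.57), and 2 rose. Of 14 fatty acid oxidation genes, 4 fell, 2 rose and 8 did not pass. Cpt1a, the gate of mitochondrial import, rose (0.32). Ppargc1a, the coactivator that promotes mitochondrial genes, was among the falls, going from 0.624 ± 0.117 to 0.17 ± 0.0555 CPM (log2 fold change −1.85, SE 0.31, edgeR adjusted p = 0.00019).

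Most tested genes of amino acid synthesis and the folate cycle fell. All 5 tested enzymes of serine and glycine synthesis fell (median −0.95), and their summed level dropped by 53%. Psat1 (−1.78) and Phgdh (−1.33) catalyse the second and the first step of serine synthesis. Phgdh stood at 249.2, 217 and 233 CPM in ethanol and 90.2, 93.7 and 93.3 CPM in rapamycin. In the folate cycle, which uses serine to carry one-carbon units, 6 of 10 fell and 1 rose. Mthfd2, the mitochondrial dehydrogenase, stood at 83.2, 80.0 and 85.3 CPM in ethanol and 25.1, 23.6 and 23.3 CPM in rapamycin (log2 fold change −1.79, SE 0.06, edgeR adjusted p = 4.7e-11). Its neighbour in the pathway, Aldh1l2, fell by a like amount (−1.75). Of 9 tested genes for other amino acids, 6 fell and 2 rose. The summed level of these 9 differed by −2.95%, with overlap between ethanol and rapamycin libraries. Among them Cth (−1.35), which makes cysteine, and Bcat1 (−1.06), the cytosolic branched-chain transaminase, fell. Its mitochondrial counterpart Bcat2 rose and stood at 0.246, 0.428 and 0.33 CPM in ethanol and 0.61, 0.832 and 0.857 CPM in rapamycin (log2 fold change 1.19, SE 0.29, edgeR adjusted p = 0.0034). The 2 transaminases therefore moved in opposite directions with no overlap in either.

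Amino acid transporters and tRNA charging enzymes fell more often than they rose. Of 12 tested amino acid transporters, 6 fell and none rose. The leucine exchanger Slc7a5 (−1.55) and the cystine exchanger Slc7a11 (−0.78) fell furthest, and the glutamine transporter Slc38a2 did not pass (0.03). Of 18 cytosolic tRNA synthetases and partners, 12 fell and 2 rose (median −0.45), from Cars (−0.94) at the low end to Qars (0.48) and the scaffold Aimp1 (0.59) at the high end. Of 17 mitochondrial synthetases, 7 fell by 0.39 or less and 2 rose. Atf4, the bZIP factor that drives these genes when amino acids are short, stood at 682, 675 and 673 CPM in ethanol and 419.6, 442 and 409 CPM in rapamycin (log2 fold change −0.68, SE 0.04, edgeR adjusted p = 5.6e-09). All 8 tested stress targets fell, among them Trib3 (−0.48), Chac1 (−0.48) and Stc2 (−0.88). The hormone gene Fgf21 was close to its floor, with 1.48, 1.62 and 0.99 CPM in ethanol and 0.0555, 0.0252 and 0.083 CPM in rapamycin, and its fold change (−4.59) rests on few counts.

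The C/EBP-ATF composite TGATGNAA, the kind of site that ATF4 binds with a partner, was searched in the promoters of these genes. It occurred in 7 of 40 matched genes of amino acid synthesis, folate, transport and cytosolic charging (17.5%), against 2.68% of tested genes and 4.51% of all genes with a promoter. Over all genes called lower the share was 2.89%. Of the larger falls with a match before the start, among called genes averaging at least 5 CPM, 3 are shown for that element, in capitals on whichever strand it lies. They lie at chr8:111033678-111033777 on the plus strand (Aars, alanyl-tRNA synthetase, −0.69), chr19:43524660-43524759 on the minus strand (Got1, an aspartate transaminase, −0.53) and chr15:11399659-11399758 on the minus strand (Tars, threonyl-tRNA synthetase, −0.50).
Aars: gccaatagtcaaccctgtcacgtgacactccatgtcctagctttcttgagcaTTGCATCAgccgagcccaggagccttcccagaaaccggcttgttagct
Got1: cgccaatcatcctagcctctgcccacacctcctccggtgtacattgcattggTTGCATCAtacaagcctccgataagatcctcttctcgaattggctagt
Tars: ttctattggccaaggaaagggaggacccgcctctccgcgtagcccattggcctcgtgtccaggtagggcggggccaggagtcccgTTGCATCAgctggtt

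Transcripts of nucleotide synthesis fell, more for deoxynucleotides than for purines. Of 14 pyrimidine and deoxynucleotide genes, 12 fell and 1 rose (median −0.68). Tk1 (−1.76), Rrm2 (−1.59), Dck (−1.57) and Tyms (−1.28) fell most, and all are made in or used for S phase. Umps (−0.76), which completes UMP, fell by less. Of 13 purine genes, 8 fell and 1 rose (median −0.24), with Ppat (−0.68), the committed step, lowest. Of 6 pentose phosphate genes, Rpia fell (−0.18) and the other 5, G6pdx among them (−0.06), did not pass.

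Transcripts for glucose uptake and for the middle of glycolysis fell. The summed level of 20 transporters and enzymes was 4349, 4200.0 and 4246 CPM in ethanol and 2708, 2894 and 2731 CPM in rapamycin, and 13 fell and 1 rose. Slc2a1 (−0.77), the basal glucose transporter, and Slc2a4 (−1.37), the insulin-responsive one, fell. Hk2 (−0.92), Pfkl (−1.02), Tpi1 (−1.0) and Pgam1 (−0.91) fell by about 1 on the log2 scale. The muscle phosphofructokinase Pfkm did not pass (0.04). Of 11 hypoxia targets, 6 fell, such as Higd1a (−0.99) and Car9 (−0.69), and Ndrg1 rose (0.69).

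Mitochondrial genes fell broadly and by little. Oxidative phosphorylation had 67 tested nuclear genes, of which 28 were called lower, 3 higher and 36 neither (median −0.19). Cytochrome c, Cycs (−0.85), the complex I subunit Ndufa12 (−0.92) and Cyc1 (−0.47) of complex III were among the falls. Of 69 mitochondrial ribosomal proteins, 35 fell and 2 rose, with a median of −0.19 and a summed level that fell by 13.8%. Of 18 import factors and chaperones, 12 fell and none rose, for example Timm8a1 (−0.94) and Hspd1 (−0.64). Of 30 genes of the TCA cycle and its entry, 16 fell and 3 rose, with Idh3a (−0.90) among the falls and Pdk2 (0.63) among the rises. The mitochondrial transcription factor Tfam fell (−0.47). Genes of the mitochondrial genome were not analysed here.

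The transcripts of the ribosome and of the factors that assemble it moved in opposite directions. Of 69 tested cytosolic ribosomal protein genes, 47 rose, 3 fell and 19 did not pass (median 0.34). Among the 40 with at least 90% countable bases the median was 0.40. Their summed level was 59813, 58137 and 58011 CPM in ethanol and 77571, 81221 and 75605 CPM in rapamycin, a rise of 33.2% with no overlap. Of the called members Rpl3 rose most (0.61), and the 3 that fell, Rplp2, Rpl30 and Rpl27, had means of 0.605, 4.84 and 9.45 CPM in ethanol. Each of these 3 calls was lost on leaving out 2 to 4 of the libraries in turn (edgeR adjusted p up to 0.15). Ribosomal protein genes have many processed copies, so the counts of single members are uncertain. Of 7 elongation factors, 4 rose and none fell.

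Of 69 ribosome assembly factors, 48 fell and 4 rose (median −0.29). Gnl3 (−0.87), nucleostemin, the box C/D proteins Nop56 (−0.80) and Nop58 (−0.64) and the pseudouridine synthase Dkc1 (−0.71) fell most. Their summed level was 6933, 6955 and 7144 CPM in ethanol and 6038, 6038 and 5968 CPM in rapamycin. Utp14a (0.37) and Nob1 (0.24), which act in small-subunit maturation, rose. Genes of RNA polymerases I and III were divided, with 9 of 30 lower and 6 higher, and Polr3g (−0.93), a polymerase III subunit of growing cells, lowest. Of 32 initiation factors, 10 rose and 11 fell. Eif3k (0.50), Eif3m (0.37) and Eif3l (0.26) of the eIF3 scaffold rose, whereas Eif4e (−0.52), the helicase Eif4a1 (−0.33) and Eif2s1 (−0.40) fell. From the list of other oligopyrimidine mRNAs, Eif3f (0.72), Eif3e (0.53), Eif3h (0.45), Eif4b (0.77) and Pabpc1 (0.46) rose and none of 14 fell.

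Ribosomal protein mRNAs are known for a 5′ terminal oligopyrimidine run, through which mTORC1 controls their translation. A C followed by 4 or more C or T within the first 3 bases of a RefSeq start was found in 16 of 50 matched ribosomal protein genes, against 8.54% of tested genes. Over all matched genes the run was present in 9.75% of those called higher, 8.87% of those not called and 6.75% of those called lower. Among changes of at least 2-fold it was rarer in both directions, in 3.7% of the rises and 4.74% of the falls. A RefSeq start can lie a few bases from the start a cell uses, and a run can then be missed. The first 20 transcribed bases are shown for 3 of the larger rises with such a run, among called ribosomal protein, elongation factor and other oligopyrimidine genes averaging at least 5 CPM, with the run in capitals. They lie at chr7:108934415-108934434 on the plus strand (Eif3f, an eIF3 subunit), chr4:86857348-86857367 on the minus strand (Rps6, the S6 kinase substrate, 0.50) and chr11:48800360-48800379 on the plus strand (Rack1, a scaffold of the small subunit, 0.50).
Eif3f: CTCTCTTTCTCggcaagatg
Rps6: CTCTTTTTCgtgacgcctcc
Rack1: CTTTTTCTCCacagggtcgt

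Of 15 small nucleolar RNA host genes, several of which are oligopyrimidine RNAs, 3 rose, 1 fell and 11 did not pass (median −0.15, but 0.27 over the 3 with at least 90% countable bases). The host Zfas1 stood at 109, 110.3 and 108 CPM in ethanol and 259, 245 and 234 CPM in rapamycin (log2 fold change 1.17, SE 0.06, edgeR adjusted p = 2.9e-10), with no overlap. Epb41l4aos, another host, rose (0.92), and 2410006H16Rik, a noncoding gene outside the list, rose alike (1.10).

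Cell division genes fell together. Of 63 mitosis and centromere genes, 61 fell and 2 did not pass (median −1.53). Their summed level was 5803, 6087 and 6326 CPM in ethanol and 2202, 2052 and 2199 CPM in rapamycin, and it fell by 64.6%. Cdk1, the kinase that starts mitosis, stood at 4.62, 4.95 and 5.69 CPM in ethanol and 1.14, 1.11 and 1.38 CPM in rapamycin (log2 fold change −2.07, SE 0.17, edgeR adjusted p = 1.3e-07). Ect2 (−2.37), which directs cytokinesis, Ttk (−1.95) of the spindle checkpoint and the centromere kinase Aurkb (−1.81) also fell, Ect2 with 3.01% of its bases countable. Mki67, the proliferation marker, fell from 534 ± 65.3 to 185 ± 18.3 CPM. Of 42 replication genes, 39 fell and 3 did not pass (median −1.06), with the origin factors Cdc6 (−1.86) and Orc1 (−1.73) among the lowest. The helicase subunits Mcm3 (−1.44) and Mcm5 (−1.44) had lower values than Mcm7 (−0.53). Of 14 recombination and checkpoint genes 13 fell (median −1.5). The checkpoint kinase Chek1 (−2.48, countable share 15.2%) and the recombination motor Rad54l (−1.77) fell furthest, and the kinase Atr did not pass (−0.12). In bulk RNA, fewer cells in a phase of the cycle and less of these mRNAs per cell cannot be told apart.

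Upstream of these genes, activators and brakes both changed. Mybl2 (−1.79), Foxm1 (−1.57) and E2f7 (−1.42), which act in S and G2 phase, fell, and so did E2f3 (−0.42). The retinoblastoma gene Rb1 did not pass (−0.03), and its relative Rbl1 fell (−1.0). Of 8 G1 cyclins and kinases, 7 fell, with Ccne1 (−1.40), which enters S phase with CDK2, lowest. Among inhibitors, Cdkn1b, p27, rose and stood at 23.6, 24.0 and 23.3 CPM in ethanol and 29.5, 27.7 and 31.0 CPM in rapamycin (log2 fold change 0.32, SE 0.08, edgeR adjusted p = 0.0041). Cdkn2c (−1.38), Cdkn2d (−0.97) and Cdkn1a (−0.44) fell. In the Myc network, Mxd3 fell, Mnt (0.64) and Mxd4 (0.33) rose, and Myc did not pass (0.69). Only 19 of 63 matched replication-dependent histone genes had enough counts for a test, and 2 fell and 3 rose. The variant H2afx, which marks DNA breaks, fell (−0.91).

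Cell division promoters were searched for 2 known elements. The cell cycle homology region TTTGAA, bound by complexes that repress or activate genes of G2 and mitosis, occurred in 38 of 55 matched mitosis genes (69.1%). The share was 14.1% of tested genes, 29.5% of genes that fell at least 2-fold and 12.6% of genes that rose at least 2-fold. The E2F element TTTNGCGC occurred in 12 of 35 replication genes (34.3%), against 2.78% of tested genes and 9.09% of mitosis genes. CCAAT occurred in 70.9% and 68.6% of mitosis and replication genes. Called members with a match before the start, among the larger falls of genes averaging at least 5 CPM, are shown, 3 for each element (Rbl1 comes from the list of E2F factors and pocket proteins), with the element in capitals on either strand. Those with TTTGAA or its complement lie at chr19:37376282-37376381 on the plus strand (Kif11, a spindle motor, −1.75), chr5:45669825-45669924 on the plus strand (Ncapg, a condensin subunit, −1.71) and chr11:99024190-99024289 on the minus strand (Top2a, topoisomerase II alpha, −1.71).
Kif11: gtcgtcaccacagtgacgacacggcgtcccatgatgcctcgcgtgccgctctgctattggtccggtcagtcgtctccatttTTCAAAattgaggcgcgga
Ncapg: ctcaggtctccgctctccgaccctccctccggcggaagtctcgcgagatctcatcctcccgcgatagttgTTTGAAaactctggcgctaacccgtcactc
Top2a: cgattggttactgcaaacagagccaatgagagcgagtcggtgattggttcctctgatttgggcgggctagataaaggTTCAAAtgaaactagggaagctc
Those with TTTNGCGC or its complement lie at chr4:108579354-108579453 on the plus strand (Orc1), chrX:93632246-93632345 on the minus strand (Pola1, the catalytic subunit of polymerase alpha, −1.29) and chr2:157204535-157204634 on the minus strand (Rbl1).
Orc1: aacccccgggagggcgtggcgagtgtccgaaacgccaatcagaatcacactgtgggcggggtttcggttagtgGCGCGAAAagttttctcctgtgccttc
Pola1: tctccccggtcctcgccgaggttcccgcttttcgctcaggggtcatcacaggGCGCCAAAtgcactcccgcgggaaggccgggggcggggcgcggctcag
Rbl1: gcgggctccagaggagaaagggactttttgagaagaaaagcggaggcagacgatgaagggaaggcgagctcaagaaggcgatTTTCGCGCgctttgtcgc

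**Figure D3:**
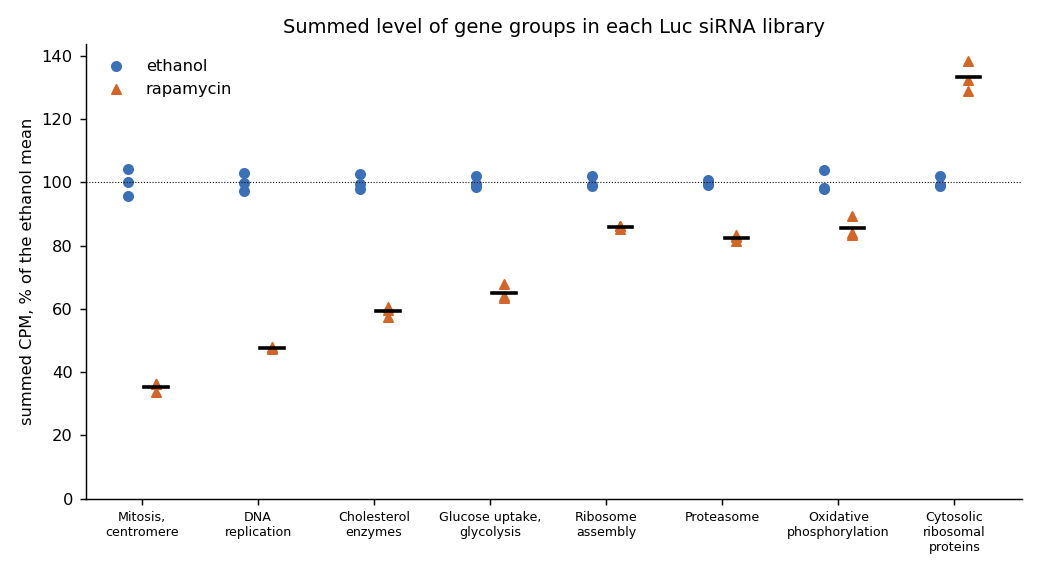
Summed CPM of 8 gene groups in each Luc siRNA library, as a percentage of the group's mean in ethanol (vertical axis, from 0). Blue circles are ethanol libraries, orange triangles rapamycin libraries and black bars the rapamycin mean. The groups do not overlap, and mitosis genes fell by 64.6% while ribosomal proteins rose by 33.2%.

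Most genes of protein quality control fell, and more autophagy genes rose than fell. Of 45 proteasome genes, 31 fell and none rose, within a narrow range (median −0.29). The lid subunits Psmd14 (−0.52) and Psmd7 (−0.47) were among the falls, and the summed level fell by 17.5%. Of 17 chaperones and foldases of the endoplasmic reticulum, 12 fell and none rose, led by Manf (−1.24) and Hspa5 (−0.95), also called BiP. Of 21 cytosolic chaperones, 12 fell and 3 rose. Stip1 (−0.90) and Hsp90aa1 (−0.82), the inducible HSP90, fell. Hsp90ab1, the constitutive one, had a value of 0.13, and its call was lost on leaving out any 1 of the 6 libraries (edgeR adjusted p up to 0.33). The summed level of the list differed by 0.0855%, less than the spread between replicates.

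Of 39 autophagy genes, 14 rose and 2 fell (median 0.13). Atg14 (0.58), of the nucleation complex, Rb1cc1 (0.56), the ULK scaffold, Ulk2 (0.42), Map1lc3b (0.43), which marks autophagosomes, and the receptor Calcoco1 (0.78) rose. Atg14 stood at 41.2, 40.8 and 43.9 CPM in ethanol and 62.6, 63.2 and 62.6 CPM in rapamycin. Lysosomal genes did not move together. Of 36 hydrolases and membrane proteins, 9 rose and 5 fell, from the cathepsin Ctsf (1.04) and the sulfatase Sgsh (0.83) to Gla (−0.46). Of 14 proton pump subunits, 6 fell and none rose. Tfeb, the factor that drives lysosomal genes, did not pass (0.34).

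Of 24 NRF2 and glutathione genes, 14 fell and 2 rose (median −0.34). Below Gsta1 and Gsta2 came Gsta4 (−0.82), Nqo1 (−0.57), a quinone reductase, and Gclc (−0.56), which limits glutathione synthesis. Among 17 iron genes Tfrc stood apart, since the other 4 that fell did so by 0.38 or less. Ferritin heavy chain Fth1 did not pass (0.10), and the mitochondrial iron importer Slc25a37 rose (0.34).

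Muscle differentiation genes fell together. Myog, the factor that commits myoblasts to differentiate, stood at 217, 215 and 177 CPM in ethanol and 79.6, 67.7 and 76.3 CPM in rapamycin (log2 fold change −1.45, SE 0.14, edgeR adjusted p = 5.9e-07). Of 22 tested fusion and contraction genes, 20 fell and none rose (median −1.36). Ckm (−2.41), muscle creatine kinase, Mylpf (−1.84), a myosin light chain, and the fusion proteins Mymk (−1.81) and Mymx (−1.23) fell. Acta1, skeletal actin, stood at 322, 304 and 236 CPM in ethanol and 113, 93.4 and 102 CPM in rapamycin. The inhibitors of muscle factors rose, with Id1 (1.15), Id2 (0.90) and Id3 (0.63) all called. Id1 stood at 0.344, 0.285 and 0.137 CPM in ethanol and 0.416, 0.655 and 0.664 CPM in rapamycin. Of the 42 matched fusion and contraction genes, 20 had too few counts for the test, so the list covers only part of the programme.

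Matrix genes rose more often than they fell, with 40 of 86 tested higher and 14 lower. Of 9 small leucine-rich proteoglycans, 6 rose, among them Bgn (0.67), Omd (0.66) and Ogn (0.58) beside Fmod and Prelp, and Lum fell (−0.87). Among collagens and their enzymes, 13 of 29 rose and 5 fell. Col18a1 (0.93), Col12a1 (0.66) and the crosslinking oxidase Lox (0.61) rose, and Col6a3 (−0.62) fell. The summed level of that group differed by −0.865%, less than the spread between replicates. Fbln2 (0.97), Fbln5 (0.89), Ltbp1 (0.82) and Thbs1 (0.77) rose among glycoproteins. Serpine2 (0.93) and Timp3 (0.90), both protease inhibitors, rose, and the proteases Adamts1 (−0.94) and Adamts4 (−0.97) fell. Integrins did not follow one direction: Itga8 (−1.45) and Itga7 (−0.81) fell with Itga4, and Itga11 (0.91), a collagen receptor, rose.

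Contractile targets and TGF-beta genes also rose more often than they fell. Of 19 targets of SRF and YAP, 9 rose and 1 fell (median 0.44). Ccn2, connective tissue growth factor, stood at 0.492, 0.309 and 0.467 CPM in ethanol and 2.25, 2.6 and 2.02 CPM in rapamycin (log2 fold change 2.44, SE 0.23, edgeR adjusted p = 5.3e-07). Its countable share was 23.8%. Tagln (1.12), an actin-binding protein, Ajuba (0.82) and smooth muscle actin Acta2 (0.57) rose. Of 23 TGF-beta and BMP genes, 12 rose and 1 fell. They included the inhibitors Smad6 (1.04) and Smad7 (0.82), the ligands Bmp4 (0.88), Tgfb1 (0.57) and Tgfb3 (0.75), and follistatin, Fst (0.92), which binds activins.

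Most tested Wnt genes rose and most tested Notch genes fell. Of 24 Wnt genes, 15 rose and 1 fell (median 0.43). Frat1 (2.13) rose beside Frat2, with the ligands Wnt4 (1.19) and Wnt10b (0.91), the receptors Fzd1 (0.43), Fzd2 (0.47), Fzd7 (0.42) and Fzd8 (0.55), and the feedback genes Axin2 (0.75) and Nkd2 (1.08). Axin2 stood at 3.49, 3.38 and 3.68 CPM in ethanol and 6.02, 6.12 and 5.61 CPM in rapamycin. Of 13 Notch genes, 8 fell and 3 rose (median −0.33). The targets Heyl (−1.77), Hey1 (−1.36) and Hes1 (−0.74) and the ligand Dll1 (−1.61) fell, and the ligand Jag1 (0.43) and the glycosyltransferase Lfng (0.48) rose. Heyl stood at 35.7, 36.4 and 33.1 CPM in ethanol and 11.2, 10.3 and 9.26 CPM in rapamycin.

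Cytokine and clock genes moved as well. Of 16 genes of Pim kinases and STAT3 signalling, 9 rose and none fell. Besides Pim1, its relative Pim3 (0.68), the oncostatin receptor Osmr (0.80) and the interleukin 6 receptor Il6ra (0.41) rose. Ece1, which processes endothelin, rose beside Edn1 (0.49), while the receptor Ednra did not pass (0.18). Of 19 clock genes, 9 rose and 5 fell. The output factor Dbp (0.79) and Nr1d1 (0.42), Nr1d2 (0.46) and Per3 (0.43) rose, and the repressors Cry1 (−0.58) and Bhlhe41 (−0.42) fell. The cells were sampled at 1 time after treatment, so phase and level cannot be told apart.

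Inflammatory, early-response and cell death lists were mixed. Over all tested genes 41.1% were called, 19.5% higher and 21.6% lower, so counts near these shares do not set a list apart. Of 26 interferon genes, 8 rose, such as Ifitm1 (1.25) and the RNA sensor Ddx58 (0.41), and 2 fell, such as Rsad2 (−1.16). Of 19 NF-kB genes, 6 rose, among them the cytokine Csf1 (0.60), and 2 fell. Of 23 immediate early genes, 6 rose and 4 fell, with Junb (0.65) highest and Fosl1 (−1.26) lowest among those called. The EGF receptor ligand Areg fell (−1.27). Of 18 p53 targets, 4 rose and 8 fell. Of 23 BCL2 family and caspase genes, 5 rose, among them Bmf (0.79) and Bcl2 (0.68), and 6 fell, among them Bik (−0.84). Of 19 plexin and semaphorin genes, 4 rose and 4 fell, and no other member came near Plxna4. Of 12 tested CREB family genes, 5 rose, 1 fell and 6 did not pass (median 0.11). Crebrf (1.05) and the coactivators Crtc1 (0.32), Crtc2 (0.19) and Crtc3 (0.35) rose, as did Crebl2, and Creb1 did not pass (0.01).

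**Figure D4:**
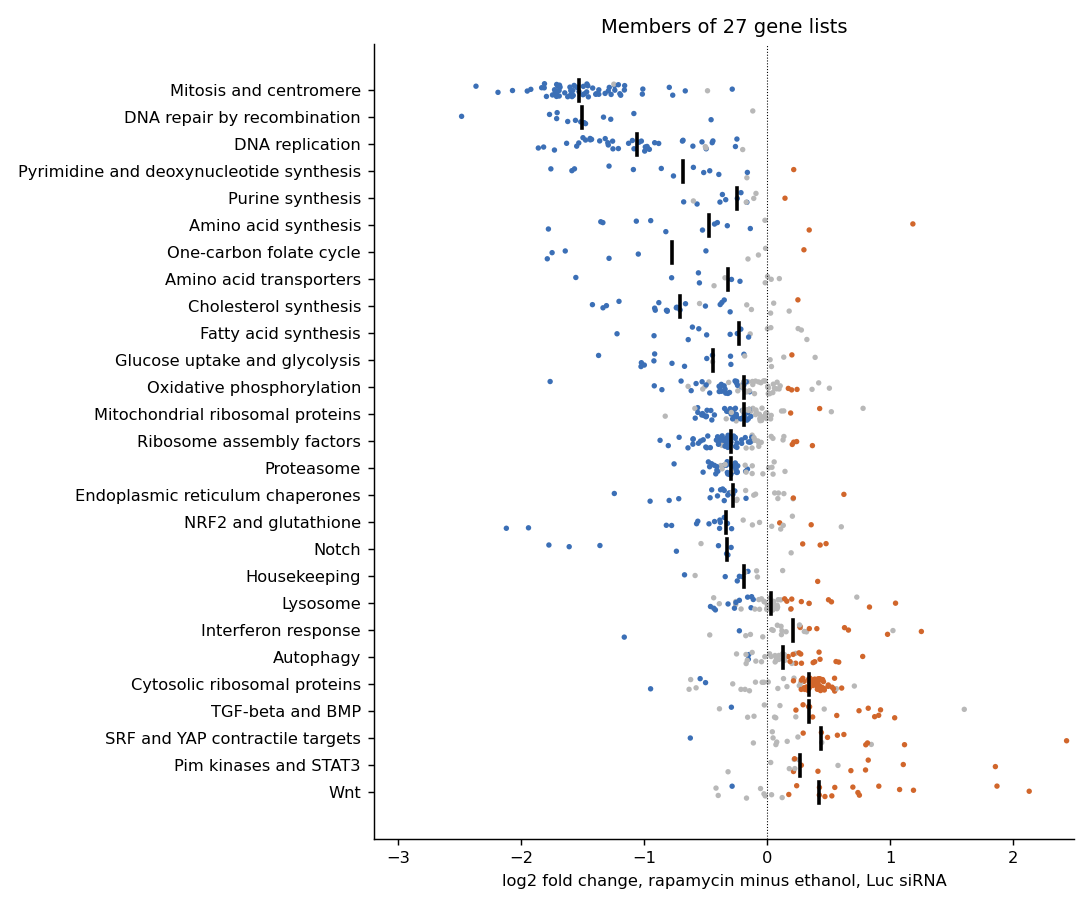
Log2 fold change of rapamycin over ethanol with the Luc siRNA (horizontal axis) for each tested member of 27 gene lists (rows). Orange points were called higher, blue points lower, grey points were not called, and black bars are list medians. Medians run from −1.53 for mitosis genes to 0.44 for SRF and YAP targets, and metabolic lists lie on the left.

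Among long noncoding genes rises outnumbered falls. Of 1509 tested, 298 were called higher (19.7%) and 98 lower (6.49%), against 20.1% and 24.7% of 10986 protein-coding genes. Their share of all CPM did not rise with that count, at 1.22% to 1.31% in the ethanol libraries and 1.06% to 1.16% in the rapamycin libraries. Among the rises of smallest p were Peg13 (0.81), an imprinted RNA, and Firre (0.69), an X-linked RNA that shapes chromatin. The falls included AI506816 (−0.85) and Brip1os (−0.68), an antisense neighbour of the recombination gene Brip1 (−1.49). Without a stated strand setting, reads of an antisense pair cannot be assigned with certainty.

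Reference genes and markers of other cell types are given for comparison. Of 12 common reference genes, 6 fell, among them Pgk1 (−0.67) and Ppia (−0.34). Rplp0 rose (0.41), and Actb (0.13), Tbp (−0.09) and B2m (−0.08) did not pass. All 10 endothelial markers were under 1 CPM, 4 of them had no count, and the list summed to 0.632 to 0.812 CPM in ethanol and 0.832 to 1.13 CPM in rapamycin. Of 10 macrophage markers, 8 were under 1 CPM, Ptprc, Itgam and Adgre1 were at 0, and the list summed to 41.1 to 46.9 CPM in ethanol and 43.4 to 44.3 CPM in rapamycin. Of 10 adipocyte markers, 7 were under 1 CPM, with Cidec and Lep at 0. The summed adipocyte list lay at 247 to 269 CPM in ethanol and 275 to 287 CPM in rapamycin, nearly all from Lpl, a lipase that muscle also makes. Of 10 epithelial markers, 8 were under 1 CPM. The list summed to 49.9 to 57.3 CPM in ethanol and 137 to 157 CPM in rapamycin through Krt14, while its defining partner Krt5 had 2 counts in all 6 libraries. Of 10 chondrocyte and bone markers, 7 were under 1 CPM. Of the 5 tested 4 rose, and Sox9, whose call was lost on leaving out any of 4 libraries (edgeR adjusted p up to 0.23), made up nearly all of 110 to 124 CPM in ethanol and 124 to 143 CPM in rapamycin. Of 10 neural markers, Nefl (−1.22), Nefm (−1.17) and Tubb3 (−0.99) fell, Stmn2 rose (0.71), and Rbfox3, Snap25 and Syt1 were at 0. The neural list summed to 303 to 317 CPM in ethanol and 330 to 362 CPM in rapamycin.

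Many named genes were measured over a small part of their length. Of the 333 tested genes named here, 65 had a countable share under 50% and 22 under 20%. They included Ltbp2 (2.47%), Fbln2 (2.97%), Sgsh (3.08%), Sqle (4.42%), Aurkb (6.6%), Ttk (6.96%), Lox (7.26%) and Fdps (7.43%). Medians over members with at least 90% countable bases were near those of the whole lists for 3 of those described above, at −1.54 for 34 mitosis genes, −0.77 for 10 cholesterol enzymes and −0.30 for 30 proteasome genes. For other lists they moved by more than 0.2, from −0.68 to −1.09 for pyrimidine and deoxynucleotide genes, from −0.44 to −0.67 for glucose uptake and glycolysis, and from −0.77 to −0.50 for the folate cycle. A gene on the other strand overlapped over 50% of the exonic bases of Foxq1 and Fosl1.

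In 6 libraries that share none with the Luc comparison, though fitted together with it, cells with the Crebl2 siRNA received the same treatment. There 2614 genes were called higher (19.7%) and 3387 lower (25.6%). Of the 2581 genes called higher with the Luc siRNA, 1891 (73.3%) were called higher again, and these are 72.3% of those called higher with the Crebl2 siRNA. Of the 2860 called lower, 2424 (84.8%) were called lower again, which is 71.6% of the falls with the Crebl2 siRNA. Opposite calls were made for 13 and 14 genes. Across all tested genes the 2 sets of log2 fold changes had a Pearson r of 0.78 and a Spearman rho of 0.761, a description over genes, which are not independent replicates. Of the 763 genes that changed at least 2-fold with the Luc siRNA, 745 kept their sign. Mitosis genes had a median of −1.65 with the Crebl2 siRNA, cholesterol enzymes −1.01 and ribosomal proteins 0.43.

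A difference in the size of the rapamycin change was called for few genes. The interaction term, the rapamycin change under the Crebl2 siRNA less that under the Luc siRNA, was called for 159 genes (1.20%), of which 129 were called with the Luc siRNA. In 72 of these the change was larger with the Luc siRNA, in 57 it was smaller, and 23 were called in opposite directions. The total depended on single libraries: it was 94 without Luc ethanol library 2 and 88 without Luc rapamycin library 3. Of the lists, the interaction was called for 6 of 22 fusion and contraction genes, 5 of 18 p53 targets and 4 of 13 Notch genes. Actn3, the fast-fibre actinin, fell with the Luc siRNA (−1.18, SE 0.06), with values of 192, 178 and 169 CPM in ethanol and 83.4, 77.4 and 76.6 CPM in rapamycin. With the Crebl2 siRNA it stood at 184, 170.4 and 194 CPM in ethanol and 150.2, 168 and 162 CPM in rapamycin, and the difference was called (interaction 0.99, SE 0.09, edgeR adjusted p = 0.00012). Cdkn1a, the p53-responsive inhibitor p21, fell with the Luc siRNA (−0.44) and stood at 0.14 with the other (interaction 0.58, SE 0.07, edgeR adjusted p = 0.00069).

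The other genes of smallest interaction p came from many processes. Mmp15, a membrane metalloproteinase, fell by less with the Crebl2 siRNA (−1.41 against −0.45). Cavin2, a caveolar coat protein (−0.70 against −0.08), the kinase Dapk2 (−0.45 against 0.19) and Fos (−0.41 against 0.61) were lower with rapamycin and the Luc siRNA. In the other direction, Fmod (2.21 against 1.30), Nrbp2 (1.51 against 0.99) and Mettl7a1 (1.38 against 0.88) rose with both siRNAs and by more with the Luc siRNA. Pcolce2, an enhancer of collagen processing, stood at 0.31 against −0.27. The lactate transporter Slc16a1 (−0.19 against −0.79) and the sterol-responsive gene Tmem97 (−1.22 against −1.75) fell by more with the Crebl2 siRNA.

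**Figure D5:**
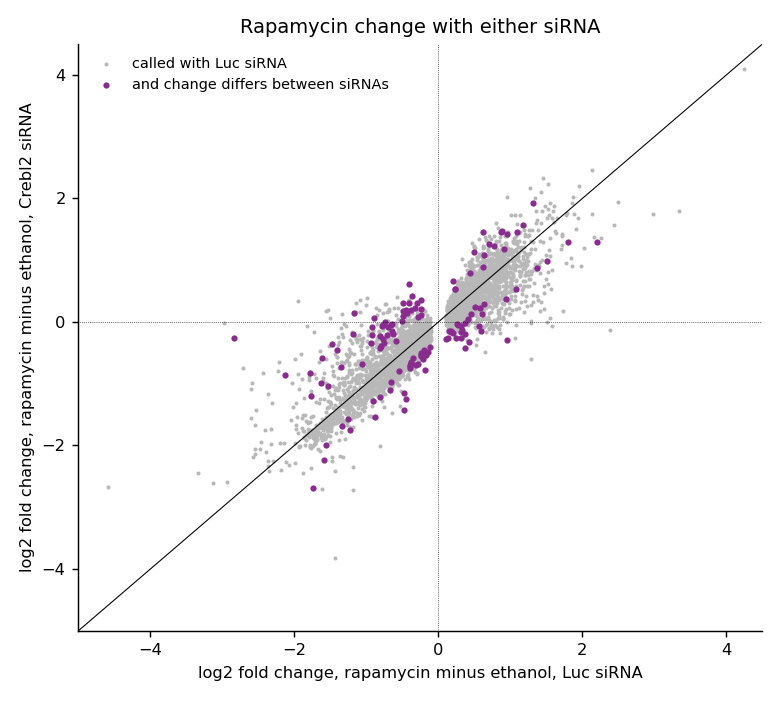
Log2 fold change of rapamycin over ethanol with the Luc siRNA (horizontal axis) and with the Crebl2 siRNA (vertical axis) for the genes called with the Luc siRNA. Purple points are the 129 genes whose change also differed between the siRNAs, grey points the others, and the line marks equal change. Most points lie near the line, and 745 of the 763 genes with at least a 2-fold change kept their sign.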

How the data were processed

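Stranded total RNA libraries of 12 samples were sequenced, and the authors deposited raw read counts per Ensembl transcript, 1 library per file. The submitters' processing notes list Trim Galore, TopHat, HTSeq, mm9 and GRCm38 but give no role for any. The rule for shared reads and the strand setting are not given in the sources used here. Coordinates are GRCm38, from GENCODE M21, and promoters are RefSeq's (GRCm38.p6).

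Counts of 58264 of 58611 transcripts were matched and summed per gene. The 347 unmatched held 0.0382% of reads. One edgeR 4.0.16 quasi-likelihood fit (R 4.3.3; TMM; filterByExpr minimum count 10) covered all 12 libraries and 4 group means. Contrasts were rapamycin minus ethanol per siRNA and the difference of these. SE is the log2 fold change over the square root of F. On simulated data with 200 changed genes, 52% of 1.5-fold and 74% of 2-fold changes were recovered, and 3.08% of calls were false. That is far fewer changed genes than the 5441 called here, so these rates may not hold for this contrast. Replicates differed by more than counting noise (chi-square per degree of freedom 6.74 to 15.75).

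Members and gene lists were chosen with earlier results of these data known. Named genes were the 14 largest rises and falls (protein-coding, mean at least 5 CPM, no overlap), the 8 largest CPM gains and losses, the 6 long noncoding genes and 6 interaction genes of smallest p per direction, and list members. Alternatives were RLE scaling, DESeq2 1.42.0, other count filters, 6 libraries only, a replicate block, protein-coding genes, genes with at least 90% countable bases, single transcripts and leaving out each Luc library.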

Additional observations from a re-analysis of the deposited data

Results flagged for a closer look

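Among the genes named in the results and in the other observations, 37 stood out because edgeR's interaction test called a difference between the rapamycin change with the Crebl2 siRNA and that with the Luc siRNA (adjusted p under 0.05). Each value below is the first change minus the second on the log2 scale, so a positive value means a weaker fall or a stronger rise with the Crebl2 siRNA. Genes of muscle were among those of highest value, with Ankrd2 (2.577), Actc1 (1.272), Acta1 (1.128) and Actn3 (0.986). The laminin receptor chain Itga7 stood at 0.39, the cadherin Cdh15 at 0.41 and the acetylcholine receptor subunit Chrna1 at 0.283. With the Crebl2 siRNA Actc1, Acta1, Actn3 and Itga7 fell by less than with the Luc siRNA, and Ankrd2 was not called.

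The Notch targets Hes1 (0.733), Hey1 (0.637) and Heyl (0.576) had positive values as well, and Hes1 was not called with the Crebl2 siRNA (0.00). Fos (1.028), Dapk2 (0.645) and Cdkn1a (0.577) were called lower with the Luc siRNA and higher with the Crebl2 siRNA. Mmp15 (0.957), Cavin2 (0.621), Adamts1 (0.596) and Erbb3 (0.593) were called lower with the Luc siRNA. Rises were larger with the Crebl2 siRNA for Fbxo32 (0.587), Calcoco1 (0.453), Zfas1 (0.404) and 2410006H16Rik (0.366). Rb1 (0.391) was called higher with the Crebl2 siRNA only.

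Negative values were held by genes of amino acid stress and folate, namely Trib3 (−0.941), Aldh1l2 (−0.941), Chac1 (−0.669) and Slc7a5 (−0.439), which fell by more with the Crebl2 siRNA. The same held for Slc16a1 (−0.597), Tmem97 (−0.529) and Acat2 (−0.348), and G6pdx (−0.457) was called lower with the Crebl2 siRNA only. Of matrix genes, Fmod (−0.908) and Smoc2 (−0.516) rose by less with the Crebl2 siRNA, and Lox (−0.471) was not called with it. Pcolce2 (−0.576) was called in opposite directions. Nrbp2 (−0.519), Mettl7a1 (−0.499) and Samhd1 (−0.266) rose with both siRNAs and by less with the Crebl2 siRNA. The groups of 3 libraries are too small for a test of single outlying libraries.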

How the results depend on the processing

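The counts of genes called higher (2581) and lower (2860) stayed within 1.5-fold under every alternative run, at 1901 to 2548 and 2115 to 3295. Leaving out 1 Luc library at a time gave 1968 to 2327 and 2587 to 2889. Without the low-count filter, 2178 were higher and 3295 lower, which moved the share of calls that were higher from 47.4% to 39.8%, and DESeq2 gave 45.2%. DESeq2 called 4934 of the 5441 genes the same way and none with the opposite sign. Same-direction calls with the Crebl2 siRNA (4315) ranged from 3238 to 4441, and from 3897 to 4105 without 1 library. The Crebl2 change (0.58) ranged from 0.51 to 0.61. The interaction count (159) was 415 without the count filter and 377 with DESeq2, and 88 to 172 without 1 Luc library (94 without ethanol library 2 and 88 without rapamycin library 3). The cause was not tested.

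No pairing by replicate number was seen: the correlations of same-numbered deviations were −0.292, −0.07 and 0.054, and 0 of 3 libraries correlated best with their own number. With groups of 3, this check cannot exclude that same-numbered samples were made together. With a replicate block, 2382 genes were called higher, 2675 lower and 91 in the interaction.

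Of 4512 values of 332 named genes under these alternatives, none reversed. DESeq2 ended the calls of Fdps, Hsp90ab1 and Rplp2, which are among the 10 genes whose calls ended on leaving out 1 Luc library and whose values stand in the results. Another 6 genes, not called, were called under at least 1 alternative. Medians of 67 gene lists moved by at most 0.413 where at least 5 members remained. Of 928 such medians under the alternatives, 192 moved by more than the SD of the list's median over the 3 rapamycin libraries. With genes of at least 90% countable bases, the median of the mTOR complexes went from 0.15 to −0.08, that of 7 cholesterol uptake genes from −0.31 to 0.05 over 5 members, and that of the small nucleolar RNA host genes from −0.15 to 0.27 over 3.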

Other observations

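Below the 5 CPM required of the largest rises and falls, other large changes were seen, and the genes here were chosen after their values were seen. Cxcl13, a chemokine that attracts B cells, stood at 7.94, 9.11 and 8.77 CPM in ethanol and 1.08, 0.806 and 1.05 CPM in rapamycin (log2 fold change −3.14, SE 0.18, edgeR adjusted p = 1.9e-09). Ankrd2, a stretch-responsive protein of muscle, stood at 1.97, 1.76 and 1.1 CPM in ethanol and 0.222, 0.227 and 0.221 CPM in rapamycin (log2 fold change −2.84, SE 0.26, edgeR adjusted p = 4.3e-07). Ano5, a membrane protein whose loss causes a muscular dystrophy, fell too (−2.57, SE 0.26). In each of these genes every rapamycin library was under every ethanol library. Col28a1, a beaded-filament collagen, rose and stood at 1.11, 0.785 and 0.88 CPM in ethanol and 4.66, 3.48 and 4.09 CPM in rapamycin (log2 fold change 2.14, SE 0.19, edgeR adjusted p = 2.4e-07). With the Crebl2 siRNA the log2 fold changes were −2.61 for Cxcl13, −0.26 for Ankrd2, −2.18 for Ano5 and 1.75 for Col28a1.

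Tested one transcript at a time, 2351 transcripts were called higher and 3269 lower of 14494. Of 1230 genes with at least 2 tested transcripts, 14 had transcripts called in both directions, so the sum over the gene hides part of their change. These examples were also chosen after their values were seen. Samhd1, a phosphohydrolase that degrades deoxynucleotides, had its main transcript at counts of 2911, 3142 and 2719 with ethanol, against 3686, 4222 and 3903 with rapamycin. Another Samhd1 transcript went the other way, at counts of 141, 142 and 119 with ethanol, against 90, 67 and 81 with rapamycin. Their log2 fold changes were 0.49 and −0.69 (edgeR adjusted p = 2.5e-07 and 0.0022). Hmgb1, an abundant chromatin protein, had transcripts at −0.57 and 0.53 (edgeR adjusted p = 6.8e-05 and 0.021), and the falling one held most of its counts. Values of single transcripts rest on bases that no other listed transcript shares.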
